A study of Mus musculus with 20 samples.

Results

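Cd3d, Cd3e, Cd3g and Cd247, which encode the signalling chains of the T cell receptor, and Cd79a, Cd79b and Ms4a1, which encode the signalling chains of the B cell receptor and the B cell surface protein CD20, were followed in macrophages sorted from fibrotic mouse livers. They are 7 of the 59311 genes of the deposited table, found by their symbols. They were selected on measured values, namely their levels after Ac-6-FP and after vehicle in these libraries, so that their differences between these treatments are given as a description without a test. The difference between the sorted subsets within a mouse was not used to choose them and was tested.

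All 10 mice were male C57BL/6 animals, 10 to 12 weeks old at the start, with liver fibrosis from CCl4 (0.6 ml/kg, 2 injections per week for 4 weeks). Mice 11 to 15 received the vehicle (1% DMSO in PBS) and Ac-6-FP (0.25 mg/kg) was given to mice 16 to 20. Ac-6-FP binds the antigen-presenting molecule MR1 and keeps mucosal-associated invariant T (MAIT) cells from being activated. Injections were given 2 h before the last CCl4 dose and daily for 2 days after it. From each liver, cells positive for CD11b and F4/80 and negative for Ly6G, CD11c and CD3 were sorted into a Ly6C hi and a Ly6C low library, for a total of 20 libraries in 4 groups of 5. The gate did not select on NK1.1 or on a B cell antigen, and no group without CCl4 was sequenced.

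The antigen receptors of T and B cells have short tails and signal through partner chains. CD3 delta, epsilon and gamma and the zeta chain, encoded by Cd247, carry the ITAM motifs that the kinase LCK phosphorylates and that recruit ZAP-70. The zeta chain also serves activating receptors of natural killer (NK) cells, which have no T cell receptor. CD79A and CD79B do the same for surface immunoglobulin, through LYN and SYK, and CD20 marks B cells before they become plasma cells. Macrophages express neither receptor and use the ITAM adaptors Fcer1g and Tyrobp instead.

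The members lie on 5 chromosomes of the mm10 genome, and the table gives each as 1 gene. Cd3g (GSMG0040678, chr9:44969572-44980432), Cd3d (GSMG0039449, chr9:44981784-44987339) and Cd3e (GSMG0040679, chr9:44998743-45009594) are neighbours, and Cd3g and Cd3d are read away from each other from start sites 1355 bases apart. Cd247 is GSMG0001003 (chr1:165788679-165877276), Cd79a is GSMG0034166 (chr7:24897510-24902197), Cd79b is GSMG0007511 (chr11:106311341-106314670) and Ms4a1 is GSMG0020114 (chr19:11249675-11345117). All 7 are protein-coding genes in the GENCODE annotation. RefSeq promoter sequence was at hand for 5 of them. The 200 bases before the start site are shown for the divergent pair Cd3d and Cd3g, whose reads often came from the same libraries, and for Cd247 and Cd79a, which differed between the subsets (build GRCm38.p6, each 5′ to 3′ on the strand of its gene). Capitals mark matches on either strand to an E-box (CANNTG) or an ETS core (GGAAG).
Cd3d, chr9:44981586-44981785, plus strand: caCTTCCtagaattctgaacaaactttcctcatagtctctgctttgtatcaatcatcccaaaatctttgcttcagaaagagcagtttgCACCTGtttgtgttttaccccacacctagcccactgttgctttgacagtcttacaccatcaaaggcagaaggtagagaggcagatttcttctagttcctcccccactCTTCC
Cd3g, chr9:44980432-44980631, minus strand: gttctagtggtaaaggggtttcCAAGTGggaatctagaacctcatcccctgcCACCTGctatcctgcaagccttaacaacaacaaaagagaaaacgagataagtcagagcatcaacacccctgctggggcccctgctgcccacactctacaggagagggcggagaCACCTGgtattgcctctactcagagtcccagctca
Cd247, chr1:165788481-165788680, plus strand: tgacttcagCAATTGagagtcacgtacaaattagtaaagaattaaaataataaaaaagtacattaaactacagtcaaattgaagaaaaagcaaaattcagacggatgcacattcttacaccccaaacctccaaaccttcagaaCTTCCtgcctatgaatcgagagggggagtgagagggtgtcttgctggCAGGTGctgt
Cd79a, chr7:24897297-24897496, plus strand: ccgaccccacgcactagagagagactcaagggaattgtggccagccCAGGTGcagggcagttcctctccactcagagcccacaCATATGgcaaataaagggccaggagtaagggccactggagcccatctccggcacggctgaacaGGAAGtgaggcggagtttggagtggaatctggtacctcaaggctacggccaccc

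The Cd3g window held 3 E-boxes and the Cd3d window held 1 E-box and 2 ETS cores. The windows of Cd247 and Cd79a each held 2 E-boxes and 1 ETS core. Such matches are common, since 58.2% of 32851 promoter windows of this length held an E-box and 56.8% an ETS core. A RUNX core (TGTGGT, in 11.2% of all windows), an EBF palindrome (CCCNNGGG, 9.91%) and a TATA box (TATAAA, 9.96%) were in none of the 5 windows of the members. These are matches of letters in a short window and say nothing of binding.

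Libraries held 5693049 to 18682437 reads on genes, and between 5343 and 15766 genes were above 0. The Ly6C low vehicle library of mouse 13 stood apart, with the fewest reads and the fewest genes. Vehicle libraries had fewer genes above 0 than Ac-6-FP libraries in both subsets, with medians of 9749 against 13622 in Ly6C hi and of 10379 against 14084 in Ly6C low. Values below are normalized counts, which are reads divided by the size factor of the library and not by gene length. A value of 0 allows up to 3 reads, which is 1.87 to 6.26 normalized counts depending on the library, and these limits cover counting error only. The sort itself was visible in the data. Ly6c2, which encodes the sorted antigen, was 3.46 ± 0.18 (SE) higher on the log2 scale in Ly6C hi (adjusted p = 1.43e-07, limma, 10 mice). The macrophage genes Adgre1 (F4/80) and Cd68 were at 1058 or more in every library. Itgam, which encodes the CD11b of the gate, was at 658 or more outside Ly6C low after vehicle. In that group its lowest value was 2.09, and 4 of 5 libraries had more than 3 reads.

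Of the CD3 genes, Cd3d had more than 3 reads in 8 of 10 libraries of Ac-6-FP mice and in 0 of 10 libraries of vehicle mice. In Ly6C low, Cd3d was at 100.3, 24.7, 119.5, 8.57 and 72.3 normalized counts in mice 16 to 20 after Ac-6-FP. After vehicle it was at 2.48 in mouse 12, which is 2 reads, and at 0 in mice 11, 13, 14 and 15. The 2 Ly6C low groups therefore did not overlap, as was also true, with Ac-6-FP higher, for 1.29% of the 17248 genes tested. In Ly6C hi, Cd3d was at 46.2, 139.7 and 37.8 in mice 16, 18 and 19, and at 0 in mice 17 and 20. Among Ly6C hi vehicle libraries it was at 1.77 in mouse 11, again 2 reads, and at 0 in the other four. These groups overlapped at 0, and in Ly6C hi none of the 7 members was separated, against 0.968% of all genes tested that were higher in every Ac-6-FP library.

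Cd3g was at 226.1, 38.1, 108.8, 0 and 61.2 in the Ly6C low libraries of mice 16 to 20. After vehicle it was at 125.4 in mouse 14 and at 0 in the Ly6C low libraries of mice 11, 12, 13 and 15. In Ly6C hi it was at 33.7 in mouse 16 and 38.7 in mouse 19 after Ac-6-FP and at 0 in the other three, while all 5 vehicle libraries were at 0. The Ly6C hi mean of 14.5 after Ac-6-FP was at least 5.03-fold higher than the mean of 2.88 that 3 reads per library allow in the vehicle group. Cd3g and Cd3d were found together in 6 libraries, all of Ac-6-FP mice, and mouse 14 was the only vehicle mouse with more than 3 reads of any CD3 gene.

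Cd3e, whose product is needed for assembly of the receptor, was at 7.71 in mouse 19 and 11.1 in mouse 20 in Ly6C low after Ac-6-FP. It was at 0 in the other 18 libraries. Its mean of 3.77 in that group was close to the mean of 3.65 that 3 reads per library allow in the Ly6C low vehicle group, and it was the only member that did not pass the filter on low values (a mean of 10 in at least 1 group), which 6 of the 7 passed. No vehicle library had more than 3 reads of more than 1 CD3 gene. Of the Ac-6-FP libraries, 5 of 5 in Ly6C low and 2 of 5 in Ly6C hi did, and the Ly6C low library of mouse 20 had all 3 genes.

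**Figure D1:**
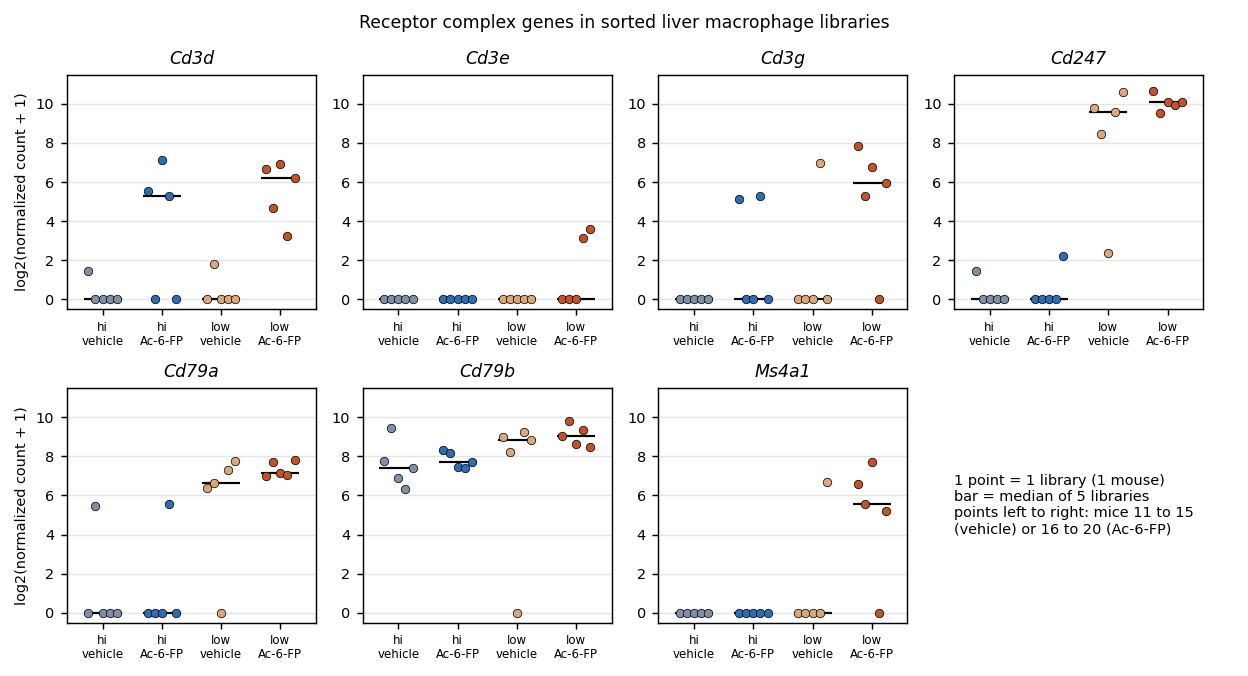
Level of each receptor complex gene as log2(normalized count + 1) in the 20 libraries (y axis) by sorted subset and treatment (x axis); each point is the library of 1 mouse and each bar the median of 5. Cd3d lies above 0 in all 5 Ly6C low Ac-6-FP libraries, Cd247 is high in Ly6C low of both treatments apart from mouse 13, and Cd79b is present in all 10 Ly6C hi libraries.

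Cd247 followed the subset instead. In Ly6C low it was at 892, 357, 4.17, 773 and 1569 in vehicle mice 11 to 15 and at 1609, 740, 1089, 999 and 1076 in Ac-6-FP mice 16 to 20. The value of mouse 13 is 2 reads, and the treatments overlapped. In Ly6C hi it was at 1.77 in vehicle mouse 11, at 3.73 in Ac-6-FP mouse 20 and at 0 in the other 8 libraries. In all, 7 reads of Cd247 came from the 10 Ly6C hi libraries and 9387 from the 10 Ly6C low libraries.

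Cd247 was thus lower in Ly6C hi by the test (-8.75 ± 0.81 on the log2(normalized count + 1) scale, SE, adjusted p = 2.08e-05, limma on within-mouse differences, 10 mice), and it was lower in 10 of 10 mice. Without mouse 13 the difference was -9.46. For comparison, 5.19% of all genes tested passed this test, 3.44% with the lower value in Ly6C hi, and 1.98% were lower in Ly6C hi in all 10 mice. The size of this difference depends on the value added before the logarithm, because Ly6C hi is close to 0. In bulk libraries, fewer cells of a type and less RNA per cell cannot be told apart.

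Among the B cell genes, Cd79a showed the same order of the subsets. It was at 83.7, 99.1, 0, 158.2 and 215.5 in the Ly6C low libraries of mice 11 to 15 and at 127.7, 206.4, 139.9, 131.9 and 219.8 in those of mice 16 to 20. In Ly6C hi it was at 42.8 in vehicle mouse 12 and 45.5 in Ac-6-FP mouse 19 and at 0 in the other 8 libraries. The within-mouse difference was -5.38 ± 0.98 on the log2 scale (SE, adjusted p = 0.00512, limma), with Ly6C low higher in 9 of 10 mice and both libraries of mouse 13 at 0. The count test edgeR on reads recovered from the values gave an adjusted p of 0.0241, and of 0.0699 without mouse 15.

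Cd79b was the only member found in every Ly6C hi library. It was at 216, 700, 116, 80.2 and 165 in Ly6C hi after vehicle and at 319, 286, 172, 168 and 211 after Ac-6-FP. In Ly6C low it was at 510, 295, 0, 602 and 459 after vehicle and at 527, 878, 396, 650 and 352 after Ac-6-FP. The subsets did not differ beyond the spread between mice (log2 -0.37 ± 0.79, adjusted p = 0.829, limma), although Ly6C low was higher in 8 of 10 mice. This value rested on mouse 13, without which the difference was -1.17 (adjusted p = 0.0914), and with the count of detected genes as covariate it turned to 0.10 (adjusted p = 0.932).

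Ms4a1 was at 0 in all 10 Ly6C hi libraries. In Ly6C low it was at 103.0 in vehicle mouse 15 and at 0 in the other four vehicle libraries, and at 95.5, 46.0, 205.6, 0 and 35.2 after Ac-6-FP. The Ly6C low mean over both treatments, 48.5, was at least 18.4-fold higher than the mean of 2.64 that 3 reads per library allow in Ly6C hi. The within-mouse difference did not pass the test (log2 -3.17 ± 1.01, adjusted p = 0.107, limma), with Ly6C low higher in 5 of 10 mice and the rest at 0 in both libraries. Cd3d (log2 -1.01 ± 0.85, adjusted p = 0.577) and Cd3g (log2 -2.24 ± 1.17, adjusted p = 0.360) did not pass it either. Thus 2 of the 6 members tested differed between the subsets, beside 5.19% of all genes tested. These 2, Cd247 and Cd79a, passed the filter on low values only through Ly6C low, since their Ly6C hi group means were at most 0.75 and 9.11.

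**Figure D2:**
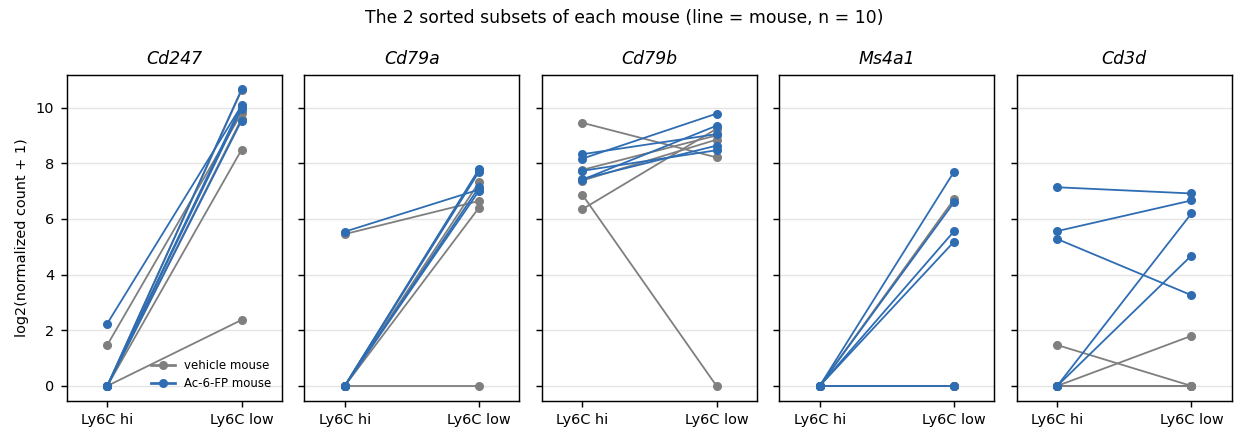
Level of 5 receptor complex genes as log2(normalized count + 1) (y axis) in the Ly6C hi and Ly6C low library of each mouse (x axis), with 1 line per mouse and the treatments in 2 colours. The lines of Cd247 rise in all 10 mice, those of Cd79a in 9, and those of Cd79b in 8, with the vehicle mouse 13 falling to 0.

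Between treatments, the log2 differences of the members have to be read beside a general shift, since the median over all 17248 genes tested was 0.35 higher after Ac-6-FP in Ly6C hi and 0.91 higher in Ly6C low. In Ly6C low, Ac-6-FP minus vehicle was 5.18 for Cd3d, 3.77 for Cd3g and 3.66 for Ms4a1, all from groups largely at 0 after vehicle, so that their size depends on the value added before the logarithm. With 10 added in place of 1 they were 2.51, 1.89 and 1.80, with 0.1 added 7.88, 5.76 and 5.64, and with edgeR 6.66, 1.73 and 1.82. The Ly6C low difference was 1.89 for Cd247, 1.71 for Cd79a and 2.00 for Cd79b, and without mouse 13 these 3 fell to 0.44, 0.31 and 0.23. With the count of detected genes as covariate they were 0.09, 0.15 and -0.03, while Cd3d was at 5.46, Cd3g at 4.56 and Ms4a1 at 3.60. After quantile normalization, which moved the median of all genes to 0.02 in Ly6C low, the difference of Cd3d was 2.67. In Ly6C hi the differences were 3.30 for Cd3d, 2.09 for Cd3g, 0.15 for Cd247, 0.02 for Cd79a and 0.25 for Cd79b. Those of Cd3d and Cd3g were 1.68 and 0.88 with 10 added before the logarithm, 4.73 and 3.40 with 0.1 added, 2.44 and 1.10 after quantile normalization and 6.53 and 7.12 with edgeR. Cd3g fell to 1.33 without mouse 16 and to 1.28 without mouse 19. The last 3 have no settled sign. Those of Cd247 and Cd79a turned to -0.38 and -0.61 after quantile normalization, and that of Cd79b to -0.12 with edgeR. With 1 mouse left out the lowest values were -0.29 for Cd247 (without mouse 20), -1.09 for Cd79a (without mouse 19) and -0.06 for Cd79b (without mouse 14).

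The number of members with more than 3 reads ranged from 1 to 2 per library in Ly6C hi after vehicle, from 1 to 4 in Ly6C hi after Ac-6-FP, from 0 to 4 in Ly6C low after vehicle and from 5 to 7 in Ly6C low after Ac-6-FP. The number of genes above 0 moved with it, and its part in the counts of members was not tested. Single libraries crossed this order. The Ly6C low vehicle library of mouse 11, with 15723 genes above 0, had 3 members and no CD3 gene, and the Ly6C low Ac-6-FP library of mouse 18, with 11156 genes, had 6 members and Cd3d at 119.5.

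**Figure D3:**
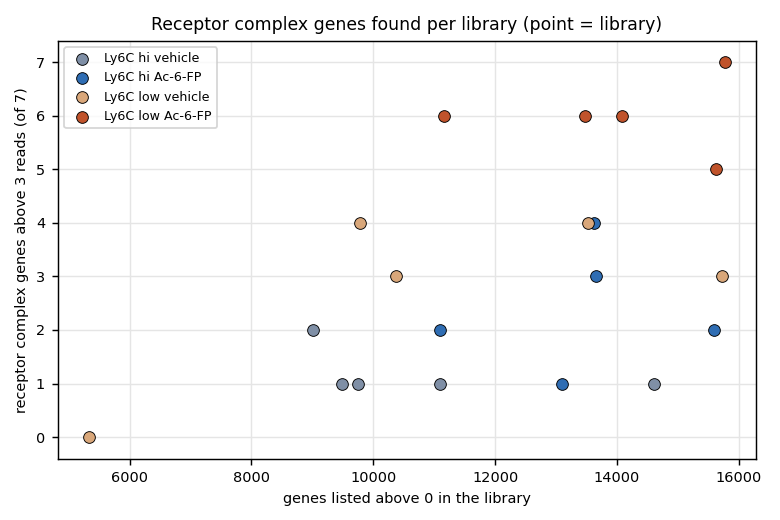
Number of the 7 receptor complex genes with more than 3 reads (y axis) against the number of genes above 0 (x axis), with 1 point per library coloured by group. The 5 Ly6C low Ac-6-FP libraries hold 5 to 7 of the genes, and Ly6C low vehicle mouse 13, with 5343 genes, holds none.

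Genes that work with these receptors were read from lists that do not include the members. Of 86 listed genes tested, none passed the test between treatments in Ly6C hi or in Ly6C low with limma, where 0.0754% and 0.0522% of all genes did. An unadjusted p under 0.05 was reached by 7 of them in Ly6C hi, where 8.73% of all genes tested reached it, and by 15 in Ly6C low, where 9.31% did. With edgeR none passed, and 5 and 8 were below an unadjusted 0.05, beside 8.93% and 9.36% of all genes. Between the subsets, 35 of the 86 passed with limma, beside 5.19% of all genes, and 27 passed with edgeR, beside 3.39%.

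Proximal T cell receptor signalling was lower in Ly6C hi for 9 of 12 tested genes and higher for none, with a median log2 difference of -4.64 (-4.81 with genes at 0 in Ly6C hi set to their bound), beside -0.03 for all genes tested. With edgeR 5 of the 12 passed. Lck, the kinase that phosphorylates the ITAMs, was at 670 to 3940 in Ly6C low and at 0 to 132 in Ly6C hi (-8.67 ± 0.82, adjusted p = 2.57e-05). The kinase Txk was at 330 to 4600 in Ly6C low and at 0 in all 10 Ly6C hi libraries. Among the others that passed were Sh2d1a, Skap1, Lat, Prkcq, Grap2 and Zap70, with differences from -8.37 (Sh2d1a) to -3.92 (Zap70). Lcp2, an adaptor that macrophages also use, was at 2267 or more everywhere and did not pass (adjusted p = 0.508), nor did Ubash3a and Rhoh. LCK, ZAP-70 and the adaptor encoded by Sh2d1a are known from NK cells as well as T cells.

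Several genes that mark T cells more narrowly were at or close to 0. Cd6, Ctla4, Themis and Trat1 were at 0 in all 20 libraries, and Cd4 was at 1.25 in 1 library and at 0 in the rest. Cd5 was found only in Ly6C low of Ac-6-FP mouse 16, at 69.1. Cd8a was found in 3 libraries (at 30.1, 25.8 and 73.7) and Cd8b1 in 2 (at 40.4 and 37.7, the Ly6C low libraries of mice 17 and 19). Lef1, Ubash3a and Cd28, also from the T cell lists, reached 160.4, 194 and 416.5 in Ly6C low after Ac-6-FP. They had more than 3 reads in 5, 4 and 3 of those 5 libraries, and in 1, 0 and 2 of 5 after vehicle. In Ly6C hi each had more than 3 reads in at most 2 libraries of a group. Of the coreceptors, 2 of 7 tested genes were lower in Ly6C hi and none higher, Cd2 (-5.68 ± 1.02, adjusted p = 0.00433) and Cd27 (-4.83 ± 1.22, adjusted p = 0.0386), both also known on NK cells, and 1 of the 7 passed with edgeR. Of the T lineage transcription factors, 1 of 6 was lower in Ly6C hi, Gata3 (adjusted p = 0.015), and in the list of receptors used by MAIT cells Il18r1 and Il7r were lower, 2 of 3 tested. With edgeR 1 gene passed in each of these 2 lists.

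The constant chains of the T cell receptor have no row under their own symbols, but rows without a symbol overlap their loci. These rows were matched by position after the values had been seen. A row over Trbc1 and Trbc2 (chr6:40891227-41548356), which also spans 14 protein-coding genes, was at 343 to 1653 in Ly6C low. It was at 0 in the 5 Ly6C hi vehicle libraries and at 68.1, 288.9 and 29.8 in Ly6C hi of Ac-6-FP mice 16, 18 and 20. Of 4 rows over Trdc without Trac, 1 (chr14:53560127-54147072) was at 392 to 1528 in Ly6C low and at most 126.5 in Ly6C hi. The Trbc row and this row were lower in Ly6C hi in 10 of 10 mice, with adjusted p = 0.00033 and 3.62e-05 (limma). A row that reaches Trac was sparse, with more than 3 reads in 5 Ly6C low libraries and 1 Ly6C hi library. The other rows were at or close to 0 in most libraries. Of the other 3 Trdc rows, 2 were at 0 in all 20 libraries and 1 reached at most 11.0. The Tcrg-C1 and Tcrg-C4 rows did not pass between the subsets (adjusted p = 0.730 and 0.104, limma), with highest values of 93.4 and 227.6, and the Tcrg-C2 row had more than 3 reads in 1 library. The Ly6C low vehicle library of mouse 13, with 2 reads of Cd247 and none of the CD3 genes, held the highest value of the Trbc row, 1653.

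NK cell markers moved with Cd247 between the subsets. All 12 were lower in Ly6C hi with limma (median -9.51) and 11 passed with edgeR, and their sum was 72247 to 166136 in Ly6C low and 78.1 to 1280 in Ly6C hi. Ncr1, a receptor found on NK cells and related innate lymphoid cells, was at 198 to 2744 in Ly6C low and above 0 in 1 Ly6C hi library. In Ly6C low of mouse 13 the patterns parted for some of these genes. Cd247 was at 4.17 there while Klrb1c (NK1.1) was at 8294, Lck at 1117 and Txk at its highest value, 4600. Ncr1 instead had its lowest Ly6C low value in that library, 198, beside 963 in the next lowest, that of mouse 12. The sum in Ly6C low was at 72247 to 122006 with a median of 104738 after vehicle and at 82614 to 166136 with a median of 107187 after Ac-6-FP, so that the treatments overlapped. Of the ITAM adaptors, Fcer1g was at 32480 to 89093 and Tyrobp at 11310 to 27880 over the 20 libraries, and Fcer1g and Hcst were lower in Ly6C hi (-0.44 and -1.26, adjusted p = 0.00662 and 0.0143). The part of NK cells in the values of the members was not tested.

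**Figure D4:**
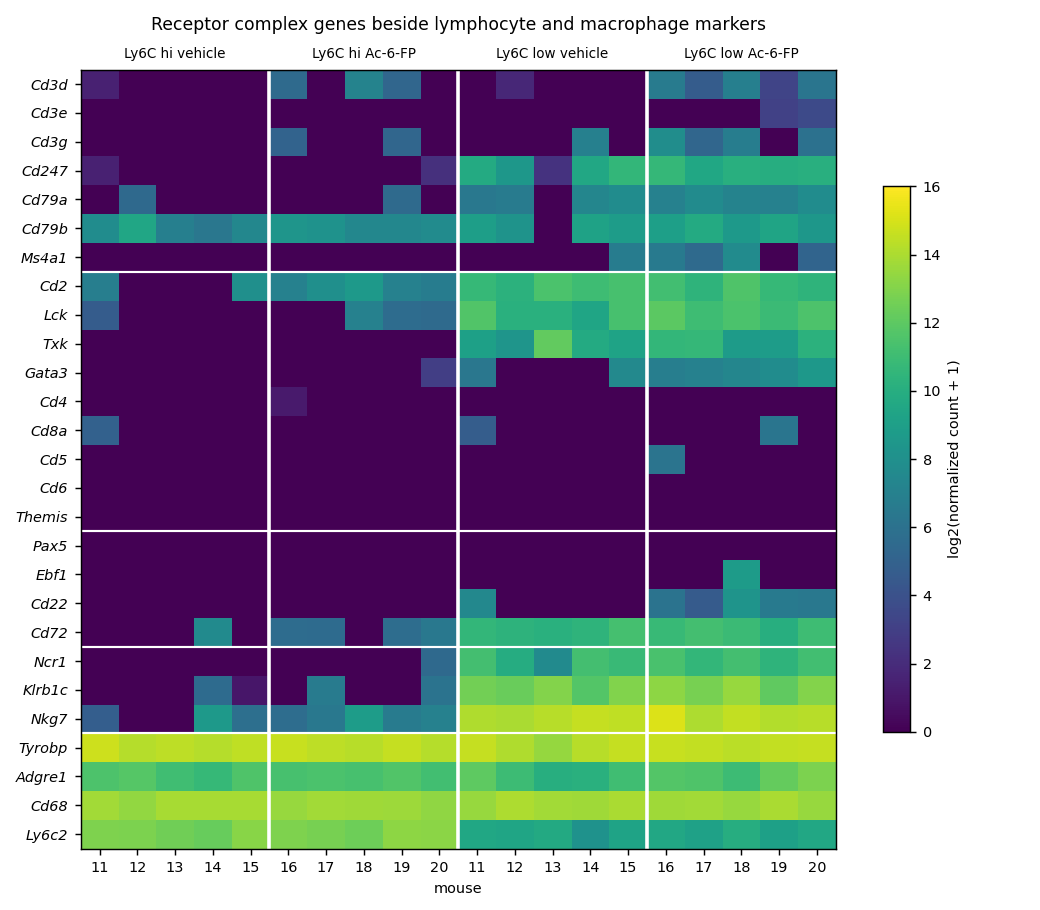
Colour gives log2(normalized count + 1) of each gene (rows) in each library (columns, by mouse and group), with blocks for the receptor complex genes, T cell genes, B cell genes, NK cell markers and macrophage genes. Lck, Txk and the NK cell markers are higher in Ly6C low, as Cd247 is. In Ly6C low of mouse 13, where Cd247 is at 4.17, Lck, Txk, Klrb1c and Nkg7 stay high. Ncr1 has its lowest Ly6C low value there, 198. Cd4, Cd5, Cd6, Themis and Pax5 stay at or close to 0, except Cd5 in Ly6C low of mouse 16.

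The B cell lists gave a mixed picture. Pax5, which holds B cells to their lineage, and the B cell kinase Blk were at 0 in all 20 libraries, and Ebf1 was found only in Ly6C low of mouse 18, at 442. Of 9 coreceptor genes tested, Cd81 (-3.37 ± 0.25, adjusted p = 3.83e-06), Cd72 (-7.57 ± 0.96, adjusted p = 0.000315) and Cd22 (-3.94 ± 1.05, adjusted p = 0.0497) were lower in Ly6C hi and none was higher, and 2 of the 9 passed with edgeR. Cd81 and Cd72 are not limited to B cells.

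Of 10 tested genes of proximal B cell receptor signalling none passed with limma or edgeR, and 2 reached an unadjusted p under 0.05 with either, beside 16.7% of all genes tested with limma and 12.1% with edgeR. Lyn, Vav1 and Plcg2, which macrophages also use, had the highest values of this list and were at 127.1 or more in all libraries. Of 4 B lineage transcription factors tested (Bach2, Bcl11a, Ebf1 and Pou2af1) none passed with either tool, with 1 and 0 below an unadjusted 0.05, beside the same 16.7% and 12.1%. Cd79b was found in Ly6C hi libraries in which Ms4a1, Pax5 and Ebf1 were all at 0. Other genes of the B cell lists were above 0 in some Ly6C hi libraries, with Bank1 at up to 288 and Fcrla at up to 180.9 after vehicle. In vehicle mouse 12, where Cd79b was highest in Ly6C hi, Cd79a was at 42.8.

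Immunoglobulin chains also have no row of their own apart from Jchain, which was found in 5 libraries, among them Ly6C low of mice 13 (3755) and 19 (3886), and did not differ between subsets (adjusted p = 0.376; 0 of 1 genes past an unadjusted 0.05 with limma, 1 with edgeR). A row over Igkc (chr6:70215400-70740554) was at 78.2 to 2490 in Ly6C low, at 0 in Ly6C hi after vehicle and at 0 to 184.1 in Ly6C hi after Ac-6-FP (-6.73 ± 1.14, adjusted p = 0.00288). Its highest value was in Ly6C low of vehicle mouse 13, in which Cd79a, Cd79b and Ms4a1 were at 0. A row over Iglc1, Iglc2 and Iglc3 (chr16:19061628-19260844) was at 67.1, 3.72, 0, 146.7 and 50.1 in Ly6C low after vehicle and at 63.4, 1180, 515, 11451 and 163 after Ac-6-FP. These groups overlapped, and mouse 19 was the highest. Ac-6-FP minus vehicle in Ly6C low was 4.97 on the log2 scale for this row and -0.87 for the Igkc row, and neither passed (adjusted p = 0.528 and 0.650, limma). In Ly6C hi the Iglc row was at 0 to 178.8, and the subsets did not pass the test either (-3.44 ± 1.17, adjusted p = 0.136). The row over Ighm spans 13 protein-coding genes and was high in all libraries, so that no chain can be read from it. Of the plasma cell markers, Sdc1 alone of 5 was lower in Ly6C hi (adjusted p = 0.0141), and Tnfrsf17 and Derl3 were at 0 throughout. Of 6 plasmacytoid dendritic cell markers, where Bst2, Tcf4 and Ccr9 had the highest values, none passed with limma or edgeR, with 2 and 1 below an unadjusted 0.05, where 16.7% and 12.1% of all genes were.

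Of 6 macrophage and sorting genes, Ptprc (CD45) was lower in Ly6C hi (-0.68 ± 0.10, adjusted p = 0.00117) and Ly6c2 higher. Itgax, which encodes the CD11c that the gate left out, was at 0 in all 10 Ly6C hi libraries and at 1038 or more in all 5 Ly6C low libraries after Ac-6-FP, and after vehicle it was above 3 reads in 4 of 5. Ly6g, the other gated-out antigen in the lists, did not pass (adjusted p = 0.467).

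Genes nearest in pattern to the members were sought by Pearson correlation of log2 values over the 20 libraries after the mean of each group had been subtracted. For the mean of the CD3 genes these were Gatsl2 (r = 0.72), 1810058I24Rik (0.67), Rxra (0.67), Zbtb39 (0.65), C130026I21Rik (0.64), Nepro (0.63), 1190002N15Rik (0.63) and Atp6v1f (0.62), none of them from the T cell lists. For Cd247 the first was Sh2d2a (r = 0.98, and 0.85 over 19 libraries without Ly6C low of mouse 13), which encodes an adaptor that binds LCK. It was followed by Prpf31, Nubp2, Cers2, Nrbp1, Prr14, 4833439L19Rik and Polr1d (0.94 to 0.95), which fell to between 0.52 and 0.70 without that library. For the mean of the B cell genes these were Snhg3, Sf3b3, Kdelr2, Il16, Grhpr, Gsdmd, Polr2d and App (0.84 to 0.85, and 0.48 to 0.70 without it). The points share libraries and depth, and 1 library sets most of these values.

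Reads of overlapping genes could not be told apart by strand, since strand-specific counting is not given in the sources used here. Cd247 overlaps Pou2f1, which was at 0 to 265 in Ly6C hi, where Cd247 was at most 3.73. The extent given for Ms4a1 reaches into Ms4a7, which was at 68.2 to 541 in Ly6C hi, where Ms4a1 was at 0 in every library.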

How the data were processed

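The authors sequenced 75-base reads from low-input libraries on a NextSeq 500, aligned them with STAR 2.4.0 to mm10, counted them on constitutive regions of FAST DB genes and normalized the counts with DESeq2. The deposited values are signal values, counts divided by 1 size factor per library, on a linear scale. Dividing by the step of each library gave whole reads for 99.97% of values above 0 (tolerance 0.006). Precision rests on 5693049 to 18682437 reads per library.

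The members and gene lists were chosen with earlier results of these data known. log2(normalized count + 1) was compared with limma 3.58.1 in R 4.3.3 for the 17248 genes with a mean of 10 in at least 1 group, and p-values were adjusted by Benjamini-Hochberg over these genes. The comparisons were Ac-6-FP minus vehicle in either subset, 5 mice against 5, and Ly6C hi minus Ly6C low within mouse (10 mice). Both libraries of a number come from 1 mouse per the labels and the Methods; their residuals correlated at a median of 0.0338. Named were all members, listed genes past the test in any comparison or else the 3 highest of a list, and the 8 genes nearest in pattern to the CD3 genes, to Cd247 and to the B cell genes. Others were named after their values were seen. Of 124 listed symbols 100 have a row. Values of a few listed genes are not reported here, although the counts of their lists include them. Tests were tried on simulated counts. Alternatives were other pseudocounts, filters and normalization, edgeR 4.0.16 on recovered reads, detected genes as a covariate, mice left out and no pairing. Mouse 15, whose Ly6C hi step was close to 1, was left out of edgeR in an alternative added after the data were seen, as were the correlations without Ly6C low of mouse 13.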

Additional observations from a re-analysis of the deposited data

Results flagged for a closer look

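In 9 of the 22 groups of 5 libraries in which a member was above 0, 1 library lay far from the other four, with a gap to the nearest of them over 0.71 of the range of the group (Dixon's limit). Chance alone flags about 1 in 20 groups, and a group with 1 library above 0 is always flagged. Of these, 8 were of that kind. Cd3d was at 1.77 in Ly6C hi of vehicle mouse 11 and at 2.48 in Ly6C low of vehicle mouse 12. Cd247 was at 1.77 in Ly6C hi of vehicle mouse 11 and at 3.73 in Ly6C hi of Ac-6-FP mouse 20. Cd3g was at 125.36 in Ly6C low of vehicle mouse 14 and Ms4a1 at 103.03 in Ly6C low of vehicle mouse 15. Cd79a was at 42.82 in Ly6C hi of vehicle mouse 12 and at 45.55 in Ly6C hi of Ac-6-FP mouse 19. Cd79b in Ly6C hi of vehicle mouse 12 was the exception, at 700.06 beside a next value of 215.94.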

How the results depend on the processing

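Between treatments, 13 genes passed the adjusted threshold in Ly6C hi and 9 in Ly6C low. In Ly6C hi there were 5 with no filter, 4 with a filter at 100 and 0 with quantile normalization, with genes detected as a covariate and with edgeR (also without mouse 15). In Ly6C low there were 2 with a pseudocount of 10, with no filter, with a filter at 100 and with the covariate, and 0 with quantile normalization and with edgeR. In the fits with 0 genes, 884 to 1614 reached an unadjusted p under 0.05. Leaving out 1 mouse gave 0 to 133 in Ly6C hi and 0 to 103 in Ly6C low, both highest without mouse 11. Between subsets 896 genes passed, 642 to 1162 with 1 mouse left out (highest without mouse 13), 1702 with the covariate, 584 with edgeR and 467 with edgeR without mouse 15. Without pairing by mouse (no replicate block) 952 passed, and no member's call changed. The causes were not tested.

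Of 111 recomputed differences of the members between subsets, 109 kept their direction and side of the threshold. Cd247 passed under every alternative (adjusted p from 2e-07 to 0.000284). Cd79a lost the call with edgeR without mouse 15 (log2 -8.03, adjusted p = 0.0699), and Cd79b turned to 0.10 with the covariate. Of the differences between treatments, 83 of 88 in Ly6C hi and 95 of 99 in Ly6C low moved by less than 1 SD. The 4 in Ly6C low that moved further were all of Cd3d (2.51 to 7.88), and the 5 in Ly6C hi were of Cd3d and Cd3g with edgeR and of Cd247 with the covariate. Ms4a1 in Ly6C hi, at 0 throughout, was left out, and Cd3e was tested only with no filter. Members at 0 to 3 reads cannot be ranked at this depth.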
